A study of Mus musculus with 13 samples.

Results

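Matrix metalloproteinases (MMPs) and their tissue inhibitors (TIMPs) were described in mouse mammary fibroblasts through 10 genes taken by symbol: Mmp2, Mmp3, Mmp11, Mmp13, Mmp14, Mmp19, Mmp23, Timp1, Timp2 and Timp3. All 10 were found among the 32285 genes listed. Fibroblasts were barcodes with 500 to 7500 genes, at most 10% mitochondrial UMIs, at least 50 UMIs per 10000 from Dcn, Lum and Col1a2, and 0 UMIs of Epcam, Pecam1, Rgs5, Sox10, Ptprc and Myog, which mark other cell types. This rule kept 100523 of 120355 barcodes.

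The 13 libraries were 10x droplet single-cell RNA libraries of stromal cells from female mammary glands, and they fell into 9 groups. Wild-type C57BL/6 mice gave 1 library each at puberty (4 weeks by the label, slightly older in the study's methods), in the adult (9 weeks), at day 14.5 of pregnancy, at day 10 of lactation and at day 4 of involution, the regression of the gland after weaning. Wild-type C57BL/6 mice of 9 weeks that had received hormone pellets, either placebo or medroxyprogesterone acetate with estradiol (MPA+E), gave 2 libraries an arm. All 9 of these libraries came from cells sorted as negative for blood and endothelial lineage markers and for CD24, pooled from 2 females per the study's description. The hyperplasia and tumour libraries, 2 of each, came from raGFP-Wnt1 mice, genotype Pdgfra-GFP KI/+ MMTV-Wnt1 T/+ on a mixed C57BL/6 FVB background, sorted for GFP, a reporter of the Pdgfra locus. The transgene drives Wnt1 from the mouse mammary tumour virus promoter, which is active in mammary epithelium. Each of 2 mice gave 1 hyperplasia and 1 tumour library, numbered alike, and was aged 45 weeks for mouse 1 and 17 weeks for mouse 2. Strain, sort and age differed between the raGFP-Wnt1 and the wild-type libraries and cannot be told apart from the transgene.

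MMPs are zinc-dependent enzymes that cut collagens, proteoglycans, adhesion molecules and bound growth factors outside the cell. Most are secreted as inactive precursors and are switched on by removal of a propeptide, and TIMPs block the active site. In the mammary gland, stromal MMPs are known for their part in the branching of ducts, in regression of the gland after weaning and in tumour invasion. MMP14 sits in the cell membrane and, with TIMP2 as a bridge, activates the MMP2 precursor. MMP3 (stromelysin-1) cuts many matrix proteins and activates other MMP precursors, and MMP13 is the main interstitial collagenase of rodents.

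The 4 genes whose levels moved most between libraries lay on chromosome 9 (Mmp3 and Mmp13, on the plus strand, 162491 bases apart), chromosome X (Timp1) and chromosome 10 (Mmp11). Their proximal promoters are shown since 2 of them share a pair of motifs. Each line gives the 100 bases before the RefSeq start site in GRCm38.p6, 5′ to 3′ on the strand of the gene, and capitals mark, on either strand, the letters of an AP-1 site, which are TGAGTCA, of a TATA box, which are TATAAA, and of a GC box, which are GGGCGG.
Mmp3 (chr9:7445722-7445821, plus strand): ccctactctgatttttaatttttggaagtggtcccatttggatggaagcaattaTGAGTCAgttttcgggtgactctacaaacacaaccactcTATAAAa
Mmp13 (chr9:7272414-7272513, plus strand): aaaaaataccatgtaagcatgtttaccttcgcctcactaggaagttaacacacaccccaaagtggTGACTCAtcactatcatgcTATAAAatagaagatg
Timp1 (chrX:20870066-20870165, plus strand): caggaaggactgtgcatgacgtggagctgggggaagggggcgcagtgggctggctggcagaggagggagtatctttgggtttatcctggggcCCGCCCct
Mmp11 (chr10:75932503-75932602, minus strand): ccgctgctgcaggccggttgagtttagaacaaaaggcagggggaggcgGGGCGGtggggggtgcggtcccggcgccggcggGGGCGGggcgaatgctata
RefSeq promoter entries were matched for 8 of the 10 genes. Both strands of the 250 bases before each start were searched. Mmp3 and Mmp13 held the AP-1 letters, starting 46 and 35 bases before the start site, and both held the TATA letters. The AP-1 letters are found in 4.46% and the TATA letters in 12.4% of 32851 such windows. The GC box letters, found in 32.7% of windows, were present in Mmp11, Mmp14, Timp1, Timp2 and Timp3. A match is a string of letters and no measurement of binding.

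Depth differed between the libraries. Fibroblast barcodes numbered 4236 to 11951 per library and carried 47521842 to 102522735 UMIs, with a median of 3990 UMIs per barcode in pregnancy and 20256 in tumour 2. The rule for fibroblasts removed barcodes with UMIs of 6 markers of other types, which by itself lowers the sums that follow. The summed level of 5 macrophage markers was 1.05 to 3.66 CPM (UMIs of a gene per 10000 UMIs of the library, times 100) and that of 4 endothelial markers 0.36 to 1.78 CPM. Epithelial markers summed to at most 1.51 CPM outside pregnancy (33.4 CPM), milk protein genes reached 872 CPM in lactation, and pericyte markers summed to 29.5 and 32.2 CPM in the tumours against 5.81 to 13.6 CPM elsewhere. In lactation, leaving the milk genes out of the total left the ratios to the adult nearly unchanged (1.85 for Mmp3 and 0.46 for Timp1 in both settings). Beyond this, the part of these markers in the levels below was not tested. Levels are CPM over all fibroblast barcodes of a library. UMIs from this 3′ chemistry count molecules, 1 end per transcript, so CPM is compared between genes without division by length. In such sums, fewer cells that express a gene and less RNA per cell cannot be told apart.

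**Figure D1:**
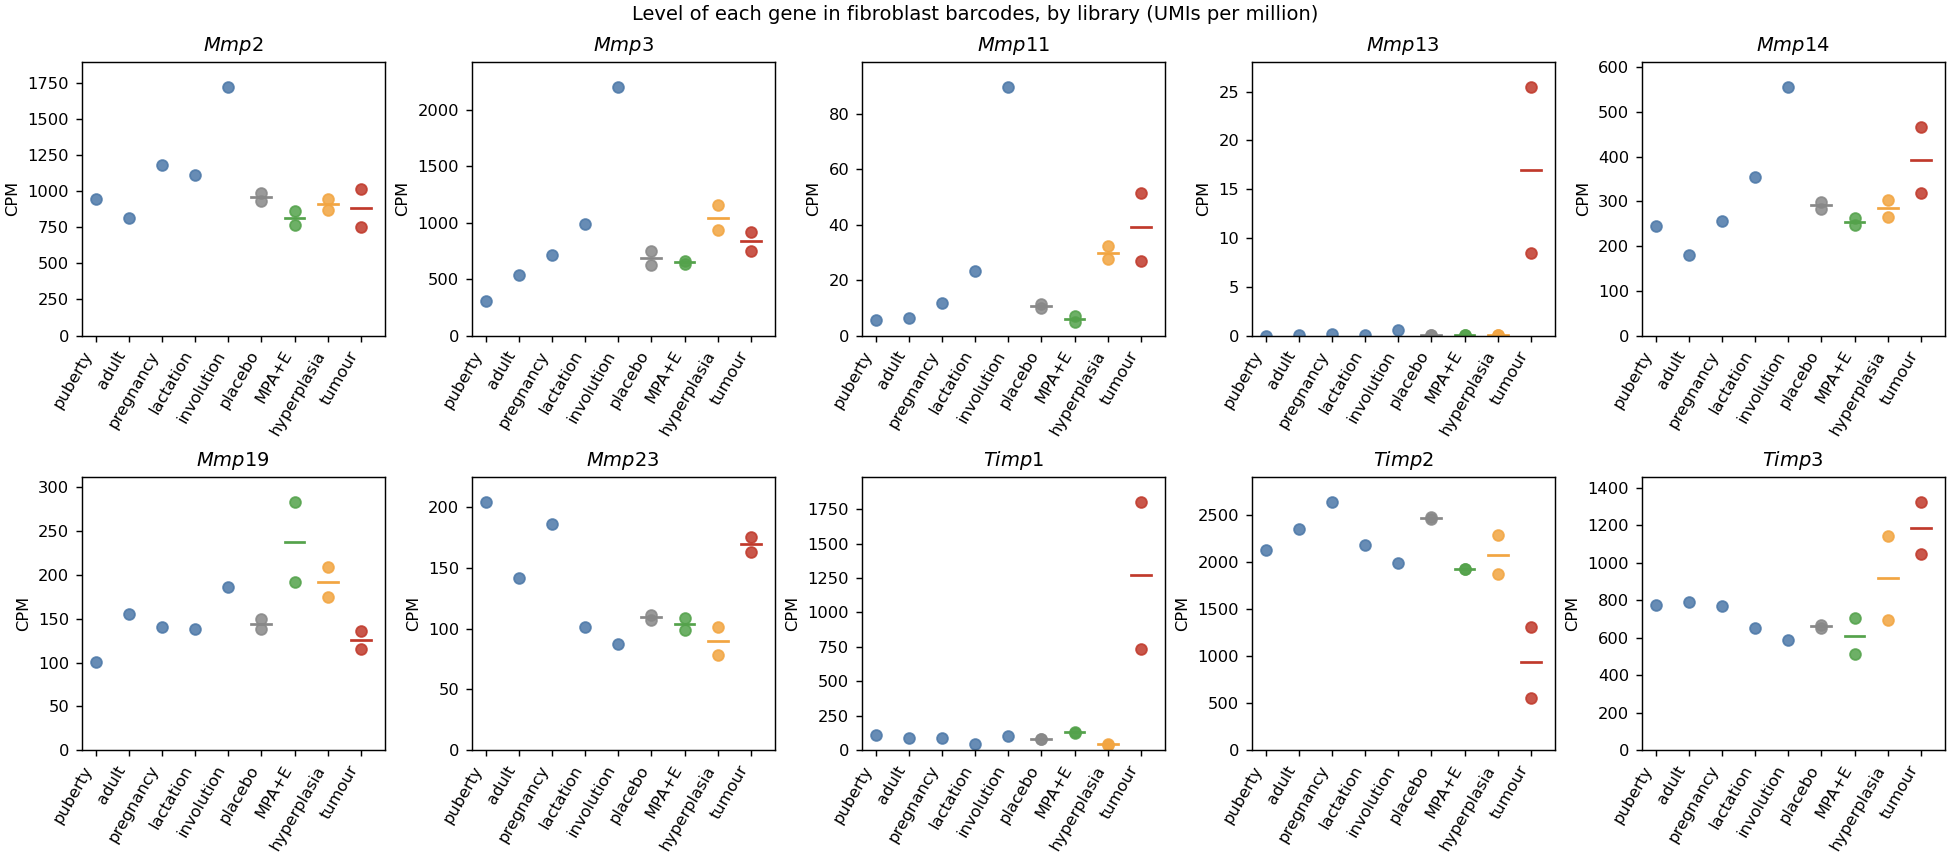
Level of each gene (vertical axis, CPM over fibroblast barcodes, from 0) in each of the 13 libraries (points), by group (horizontal axis); a short line is the mean of 2 libraries. Mmp3, Mmp11, Mmp2 and Mmp14 were highest in involution, Mmp13 and Timp1 in the tumours, and Timp2 was lowest in the tumours.

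Timp2 was the most abundant of the 10 transcripts in the wild-type libraries other than involution. It had 1920 to 2642 CPM over the 9 wild-type libraries, a range of 1.38 times and the narrowest of the 10. Mmp2 (gelatinase A) followed among the proteases at 767 to 1720 CPM, and Mmp3 spanned 308 to 2204 CPM. Timp3, which is held in the matrix, had 511 to 789 CPM in wild-type libraries, and Mmp14 had 179 to 556 CPM. Mmp19 had 101 to 284 CPM, Mmp23 87.4 to 205 CPM and Timp1 41.8 to 131 CPM. Mmp11 (stromelysin-3) had 4.96 to 89.7 CPM and Mmp13 at most 0.55 CPM.

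The share of fibroblasts with at least 1 UMI was counted after each cell had been thinned to 2000 UMIs, with shallower cells left out. The median share over the 13 libraries was 90.8% for Timp2, 76.2% for Mmp2, 54.3% for Timp3, 39.6% for Mmp14, 37.1% for Mmp3, 21.8% for Mmp19, 18.5% for Mmp23, 13.8% for Timp1 and 2.11% for Mmp11. Without thinning the medians were 98.3% for Timp2, 95.2% for Mmp2, 74.4% for Timp3, 82.7% for Mmp14, 60.1% for Mmp3, 54.2% for Mmp19, 54.7% for Mmp23, 34.6% for Timp1 and 11.0% for Mmp11. Barcodes of the same libraries with at least 2 UMIs of the 6 markers of other cell types and fewer than 50 UMIs per 10000 of Dcn, Lum and Col1a2 served as background, with a median of 1835 to 12899 UMIs per barcode against 3990 to 20256 in fibroblasts. Fibroblasts had the higher thinned share in 13 of 13 libraries for Mmp2, Mmp3, Mmp14, Mmp19, Mmp23, Timp1 and Timp2, and in 11 of 13 for Mmp11. Mmp13 was detected in at most 2.01% of thinned fibroblasts, the share of tumour 2. Timp3 differed from the others: its median share was 55.5% in the background barcodes, and fibroblasts were higher in 6 of 13 libraries only, so at this depth detection of Timp3 does not set fibroblasts apart from other cells.

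The stage libraries addressed how the proteases and inhibitors vary as the gland grows, lactates and regresses. At day 4 of involution Mmp11, Mmp3, Mmp14 and Mmp2 stood far above the adult level, while the 3 Timp genes stayed within 1.5 times of it. With 1 library a stage there is no test, and the intervals given are 95% Poisson intervals for counting error alone. Of the 9 genes above 10 CPM in involution or the adult, 5 lay past 1.5 times the adult level, and 27.6% of the 8182 genes of this abundance did so. The 2 placebo libraries, from mice of the adult's age, had 16.2% and 19.5% of genes past the same limit. They also differed from the adult library by the pellet and by depth, with a median of 14158 and 12475 UMIs per fibroblast against 5805. The parts of gland, pellet and depth in that difference cannot be told apart.

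Mmp11 had 5.48 CPM at puberty, 6.50 CPM in the adult, 11.9 CPM in pregnancy, 23.5 CPM in lactation and 89.7 CPM in involution. Its involution level was 13.8 times that of the adult (12.6 to 15.2), and all later stages were above both virgin stages. The placebo libraries had 10.1 and 11.2 CPM, which is 1.56 and 1.73 times the adult level. The pregnancy value (1.83 times, 1.62 to 2.07) thus lay close to the difference between the placebo and adult libraries. Mmp11 is made by stromal cells and, unlike most MMPs, leaves the cell as an active enzyme. Mmp3 had 308, 537, 716, 991 and 2204 CPM in the same order of stages, and 752 and 628 CPM in the placebo libraries. Its involution level was 4.11 times the adult level (4.06 to 4.15) and its level at puberty 0.57 times (0.56 to 0.58), both outside the range of the 3 virgin libraries of 9 weeks. Mmp14 had 246, 179, 256, 354 and 556 CPM across the stages, and 299 and 284 CPM under placebo. The ratio to the adult was 3.10 (3.04 to 3.16) in involution and 1.98 (1.93 to 2.02) in lactation, against 1.66 and 1.58 in the placebo libraries. Mmp2, the target of MMP14, had 944, 813, 1179, 1112 and 1720 CPM, a ratio of 2.12 (2.10 to 2.14) in involution, and 987 and 931 CPM under placebo.

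Mmp13 was nearly absent before involution. From puberty to involution it had 0, 1, 8, 2 and 41 UMIs, and it had 4 and 7 in the placebo libraries. The count of 41 gives 0.55 CPM (0.40 to 0.75), and its ratio to the adult of 40.8 has an interval of 6.92 to 1649. The 8 UMIs of pregnancy give a ratio of 12.4 with an interval of 1.67 to 552. Of the 41 UMIs of Mmp13 in involution, 22 fell in a single cluster led by Fabp4 and Reg1 and 11 in the cluster led by Chchd10 and Txnip.

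Mmp23 and Mmp19 followed other courses. Mmp23, a membrane-bound MMP that also modulates a potassium channel, had 205, 141, 187, 102 and 87.4 CPM from puberty to involution. It was the only one of the 10 genes past 1.5 times below the adult level in involution (0.62 times, 0.60 to 0.64). The placebo libraries had 112 and 107 CPM, 0.79 and 0.76 times the adult level. Mmp19, which cuts basement membrane proteins, had 101, 156, 140, 138 and 186 CPM in this order, and 150 and 138 CPM under placebo. Only its puberty level lay past the limit (0.65 times, 0.62 to 0.67). At puberty these 2 ratios, for Mmp3 and Mmp19, were the only ones past 1.5 times, where 5.01% of genes were. In pregnancy Mmp11 was past the limit, where 3.38% of genes of at least 10 CPM were. Mmp13, which lay below 10 CPM, was past it as well, on 8 UMIs against 1 in the adult.

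Among the inhibitors, Timp1 had 110, 91.4, 91.3, 41.8 and 105 CPM from puberty to involution. Its level in lactation was 0.46 times that of the adult (0.44 to 0.48), and lactation was the lowest of the 9 wild-type libraries. In lactation Mmp3, Mmp11 and Mmp14 lay above the limit and Timp1 below it, where 27.4% of genes were past it in either direction. Timp2 had 2122, 2350, 2642, 2177 and 1992 CPM and Timp3 775, 789, 768, 653 and 589 CPM. The lowest ratio to the adult was 0.85 for Timp2 and 0.75 for Timp3, both in involution.

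The summed level of the 7 Mmp genes divided by that of the 3 Timp genes was 0.60, 0.57, 0.71, 0.95 and 1.80 from puberty to involution. It was 0.72 and 0.65 under placebo, 0.82 and 0.74 under MPA+E, 1.05 and 0.69 in hyperplasia and 0.77 and 0.68 in the tumours. The pooled SD between 2 libraries of a group was 0.14 (4 groups, involution not among them). The involution value lay further than this from every other value. It rests on 1 library, so its own spread is not known and it was not tested. The hyperplasia and tumour values overlapped. Both MPA+E values lay above both placebo values, by less than the pooled SD between their nearest libraries, and this was not tested. Involution combined the highest Mmp sum of the 13 libraries, 4845 CPM, with a Timp sum of 2685 CPM that was within the range of the others (2558 to 3501 CPM). This is a ratio of transcripts, and it says nothing of enzyme activity.

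**Figure D2:**
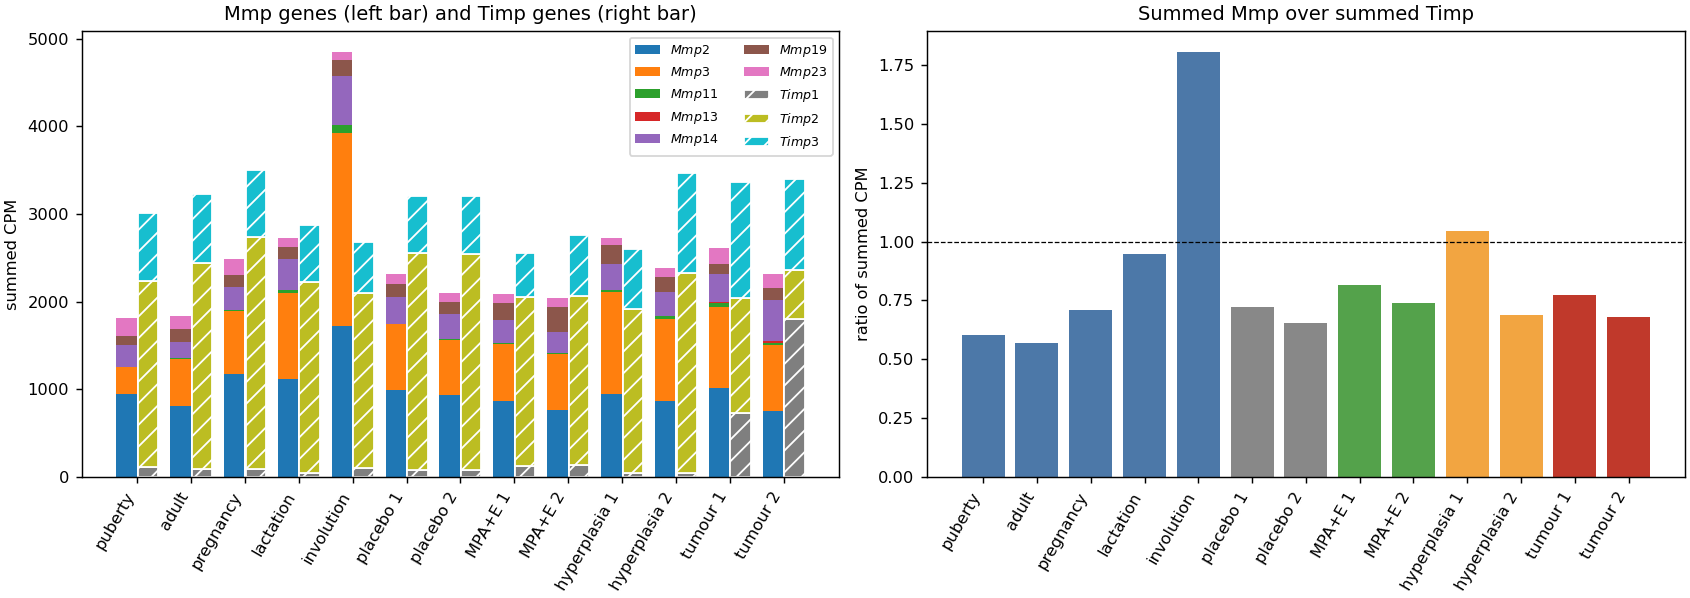
Left: summed CPM of the 7 Mmp genes (left bar of each pair) and of the 3 Timp genes (right, hatched bar) in each library, stacked by gene. Right: the ratio of the 2 sums, with a dashed line at 1; the involution bar reaches 1.80 and hyperplasia 1 reaches 1.05, and the other 11 libraries lie between 0.57 and 0.95.

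Fibroblast states were taken from a clustering of each library alone, without the 10 genes and the listed proteases among the clustering genes, and clusters were named after their likeness to marker lists. The classes were progenitor-like (Pi16, Dpp4), preadipocyte-like (Fabp4, Cd36), extracellular matrix (ECM) remodelling-like (Crabp1, Pla2g7), lobular-like (Thbs4, Cilp), adipogenesis-regulatory-like (Gdf10, Clec11a), cycling and myofibroblastic-like (Acta2, Lrrc15). Clusters came from the same cells, so a class against the rest is a description with no test. Of 50 pairs of a gene and a class present in at least 8 libraries, 16 lay on the same side of the other named cells in every library that had the class, 6 above and 10 below. At a finer clustering (Leiden resolution 1.2) 14 did so. The share of such pairs over all genes was not computed, so these counts do not set the 10 genes apart from others.

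The classes differed in which of the 10 genes they carried most. Mmp3 was higher in the ECM remodelling class than in the other named cells in 12 of 12 libraries, with a median of 1905 CPM (1097 to 3821), and lower in the progenitor class in 13 of 13, with a median of 126 CPM (45.4 to 822). Mmp19 was higher in the ECM remodelling class in 12 of 12 libraries as well, with a median of 345 CPM against 53.5 CPM in the progenitor class. Mmp11 was above the other cells in the ECM remodelling class in 10 of 12 libraries (median 45.6 CPM, 6.73 to 211). Timp2 was the reverse: it was higher in the progenitor class in 13 of 13 libraries, with a median of 3772 CPM (1120 to 4525), and lower in the ECM remodelling class in 12 of 12, with a median of 855 CPM (527 to 1105). Timp3 had a median of 1182 CPM in the progenitor class, above the other cells in 11 of 13 libraries, and of 363 CPM in the ECM remodelling class. The 2 exceptions were both tumours. Mmp23 was higher in the progenitor class in 11 of 13 libraries (median 150 CPM), again with the tumours as the exceptions.

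Timp1 ran against Timp2 and Timp3. It was higher in the ECM remodelling class than in the other named cells in 11 of 12 libraries, with a median of 150 CPM. Among the named classes other than cycling cells, this class was the highest for Timp1 in 6 of 13 libraries. Timp1 was lower in the progenitor class than in the other named cells in 13 of 13 libraries (median 27.3 CPM, 9.09 to 1279). It was above them in 11 of 11 libraries for the adipogenesis-regulatory class (median 104 CPM) and 5 of 5 for cycling cells (median 374 CPM). Mmp14 was higher in the preadipocyte class in 10 of 10 libraries (median 346 CPM) and in the ECM remodelling class in 10 of 12 (median 349 CPM). Of the 9 genes other than Mmp13, Mmp2 differed least between classes, with a median log2 ratio to the other named cells between -0.41 (adipogenesis-regulatory) and 0.28 (preadipocyte) among the 5 classes present in at least 8 libraries. The class with the highest level was read by library, with cycling cells again left out. It was the progenitor class for Timp2 in 13 of 13 libraries, for Timp3 in 11 and for Mmp23 in 11. It was the ECM remodelling class for Mmp3 in 9 and for Mmp19 in 9.

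**Figure D3:**
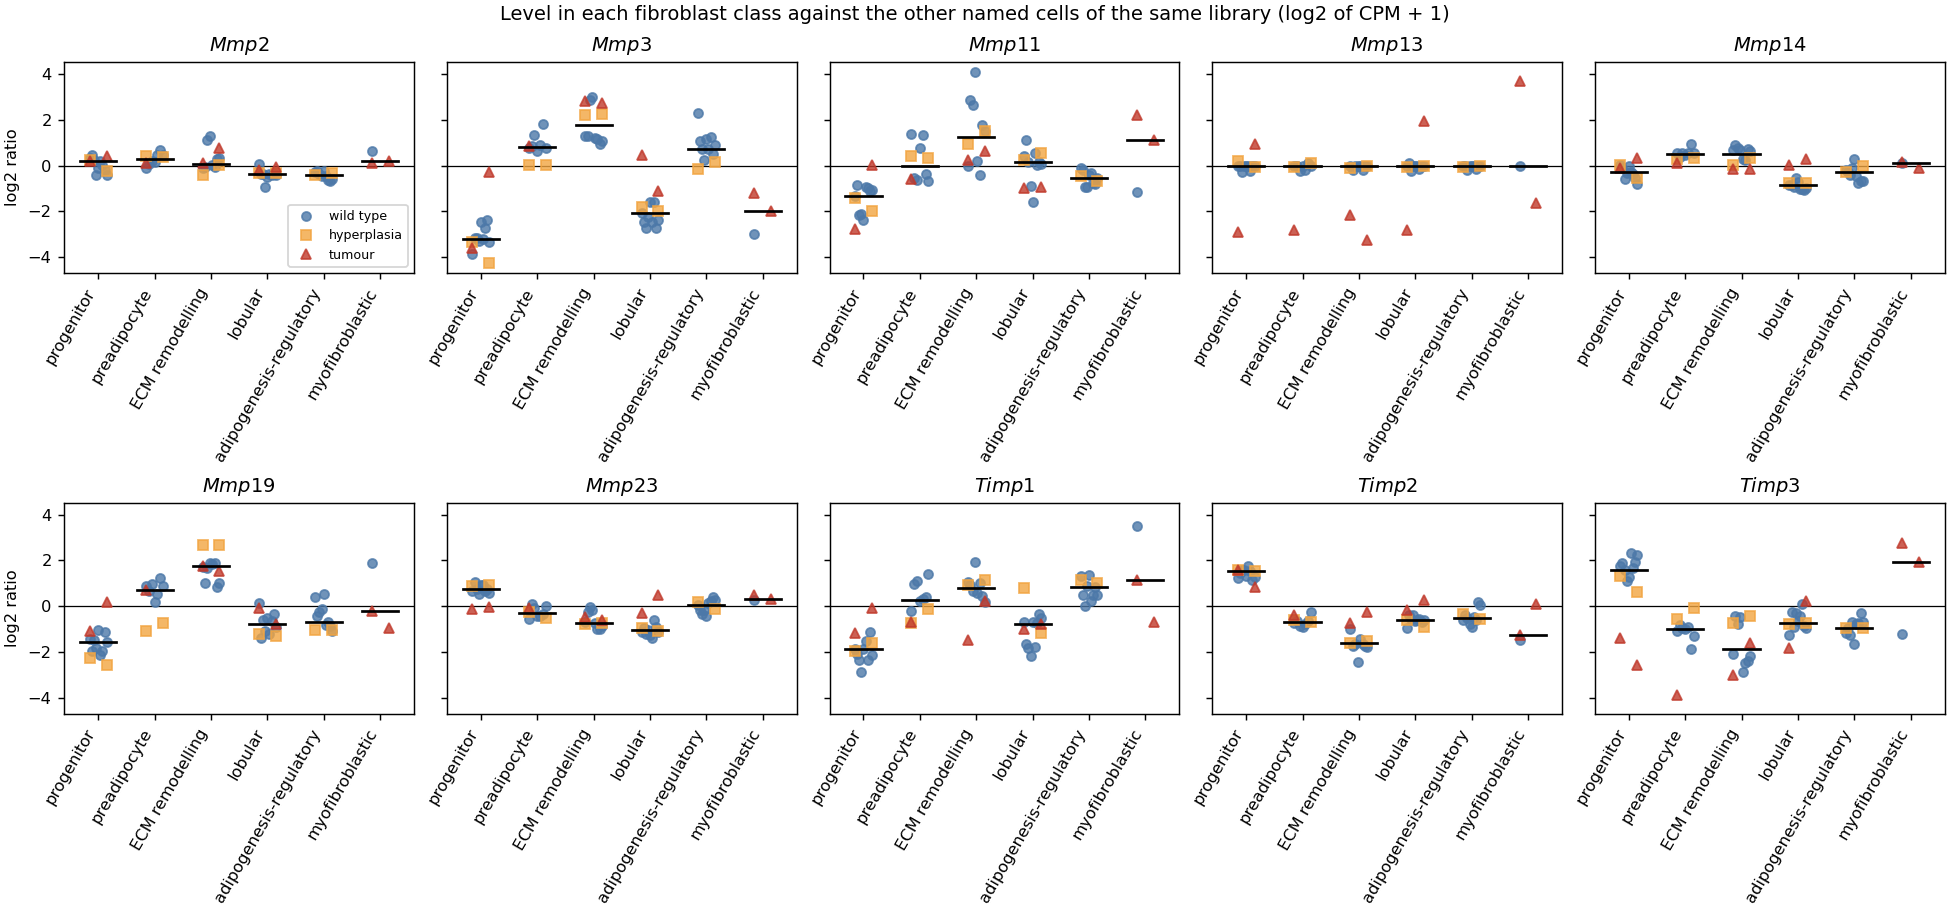
Log2 ratio of the level (CPM + 1) in each class to that in the other named cells of the same library, 1 point per library (blue circles wild type, orange squares hyperplasia, red triangles tumour), with a black line at the median. Mmp3 and Mmp19 lie above 0 in the ECM remodelling class and below 0 in the progenitor class in nearly all libraries, Timp2 the other way round, and the Timp3 points of the tumours (red) lie apart from those of the other libraries in the progenitor class.

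In involution much of the protease RNA lay outside the named classes, since 54.9% of its fibroblasts were in clusters without a name. The cluster led by Chchd10 and Txnip (1236 cells, 12.5% of fibroblasts) had 4948 CPM of Mmp3 and 275 CPM of Mmp11 and held 26.8% and 36.5% of the UMIs of these genes. The cluster led by Fabp4 and Reg1 (1242 cells) had 4032 CPM of Mmp3, 148 CPM of Mmp11 and 2537 CPM of Mmp2. The ECM remodelling class, 307 cells, had 3179 CPM of Mmp3, against 1270 CPM in that class of the adult. The progenitor class had 196 CPM of Mmp3 in involution and 89.1 CPM in the adult, and the placebo libraries had 126 and 137 CPM in the progenitor class. In involution 62.7% of thinned fibroblasts and 13.5% of the background barcodes had Mmp3. Within the progenitor class the ratio of involution to the adult was 2.20 for Mmp3, 2.19 for Mmp11, 2.17 for Mmp14 and 1.14 for Mmp2. The higher of the placebo ratios to the adult in this class was 1.54 for Mmp3, 1.74 for Mmp11, 1.64 for Mmp14 and 1.11 for Mmp2. For Mmp3, Mmp11 and Mmp14 both placebo libraries thus lay above the adult as well. The share of all genes with such ratios was not computed within this class. Chchd10 overlaps Mmp11 on the opposite strand of chromosome 10 in GENCODE M21.

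**Figure D4:**
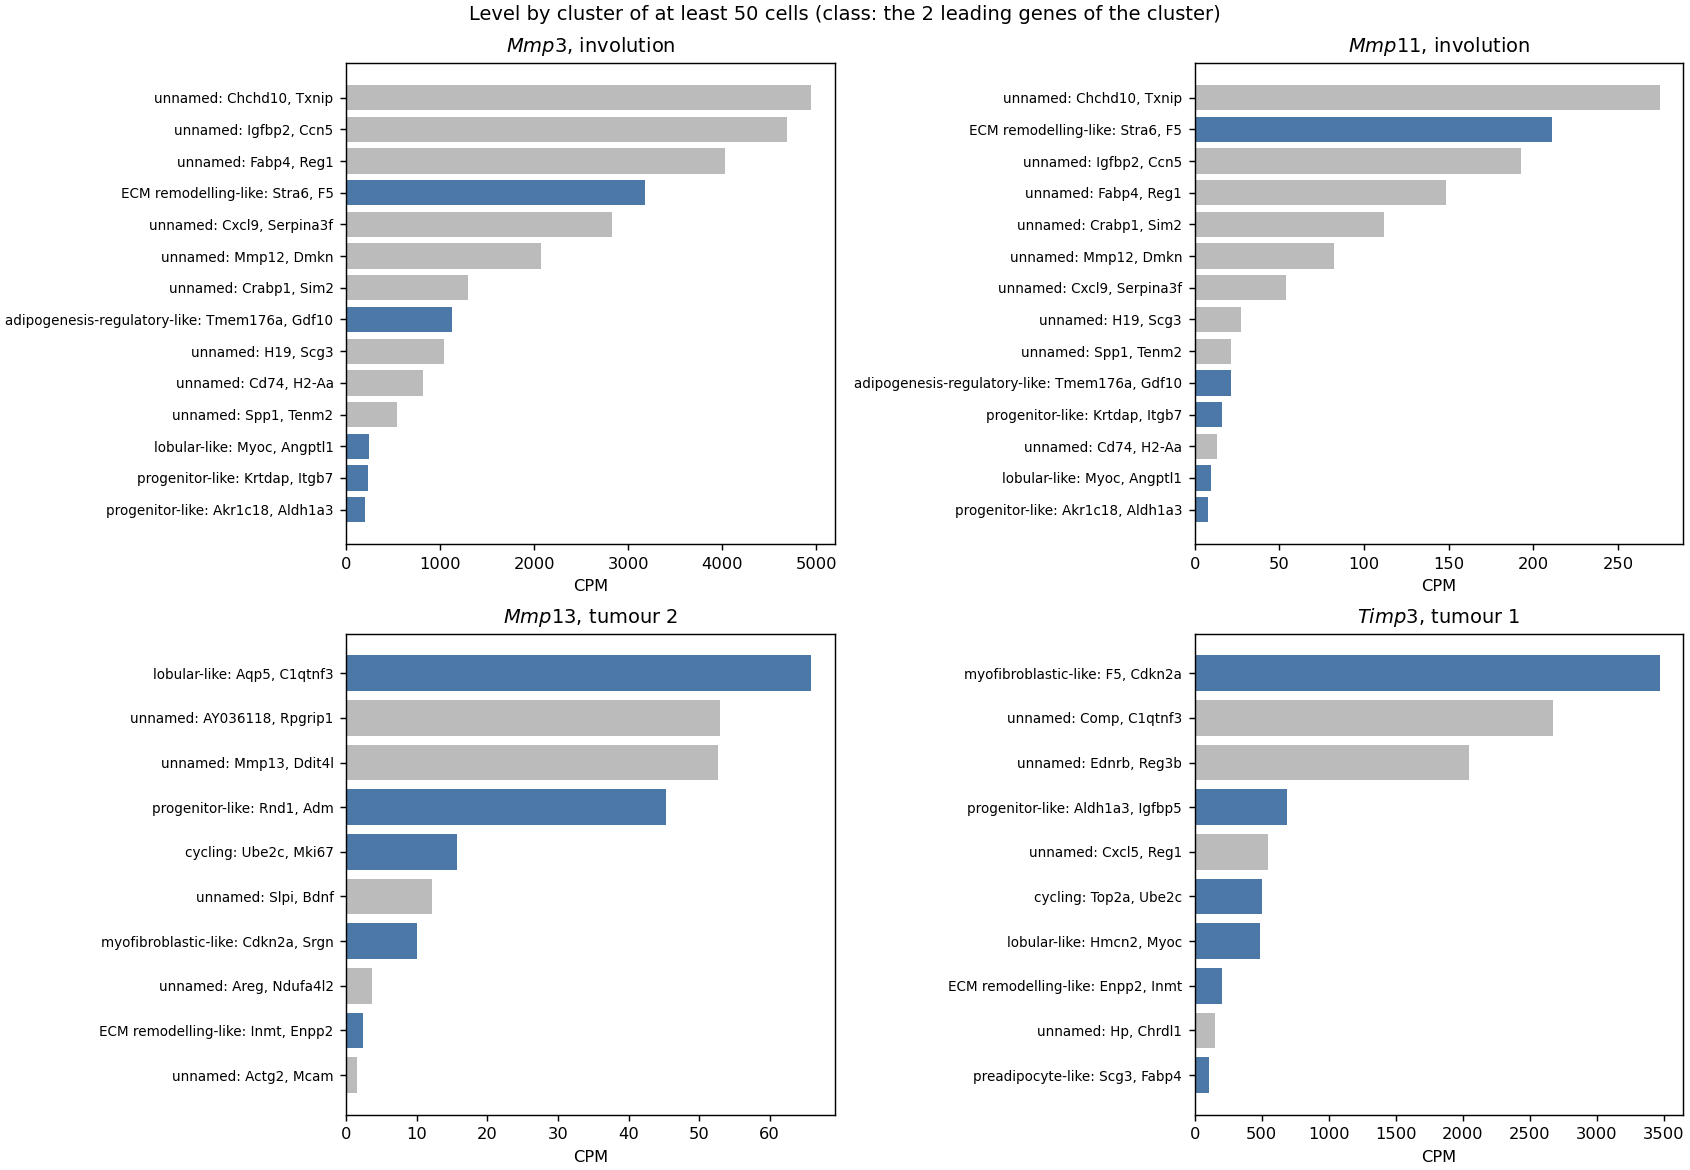
Level (CPM, from 0) of Mmp3 and Mmp11 in involution, Mmp13 in tumour 2 and Timp3 in tumour 1 in each cluster of at least 50 cells, labelled by class and its 2 leading genes (blue: named class, grey: unnamed). The cluster led by Chchd10 and Txnip is highest for Mmp3 and Mmp11, the lobular-like cluster led by Aqp5 for Mmp13, and the myofibroblastic-like cluster for Timp3.

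The hormone libraries asked how MPA+E, a progestin with estradiol, changed the fibroblasts. Timp1 rose, and none of the 6 Mmp genes tested among the 10 passed the threshold in the fit over all fibroblasts. With edgeR's quasi-likelihood test 678 of 15642 genes (4.33%) had an adjusted p under 0.05, and of the 9 members tested 1 did so, where 2.69% of genes rose and 1.64% fell. Without placebo 1 or placebo 2 the count of genes was 22 or 42. Mmp13 was left out by the filter on low counts, with 4 and 7 UMIs under placebo and 1 and 1 under MPA+E. Timp1 had 77.7 and 81.9 CPM under placebo and 127 and 131 CPM under MPA+E, and the arms did not overlap. Its log2 fold change was 0.70 ± 0.12 (SE, n = 2 against 2 libraries) with an adjusted p of 0.0454 by edgeR. The call was lost on leaving out placebo 1 (adjusted p = 0.287), placebo 2 (0.173) or MPA+E 2 (0.0734), and Timp1 passed in 9 of 14 alternatives, whose adjusted p ranged from 0.00027 to 0.287.

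Mmp19 and Mmp11 had changes of the same size that did not pass. Mmp19 had 150 and 138 CPM under placebo and 192 and 284 CPM under MPA+E, a log2 fold change of 0.74 ± 0.23 (edgeR adjusted p = 0.174, 0.00767 to 0.533 over the alternatives). Mmp11 had 10.1 and 11.2 CPM under placebo and 7.02 and 4.96 CPM under MPA+E, a log2 fold change of -0.84 ± 0.18 (edgeR adjusted p = 0.0873, 0.00431 to 0.395 over the alternatives). Both passed without MPA+E 1, Mmp19 at 1.03 (edgeR adjusted p = 0.00767) and Mmp11 at -1.06 (0.0176), and by DESeq2 (adjusted p = 0.0319 and 0.00431). Over the libraries left out the change ran from 0.37 (without MPA+E 2) to 1.03 for Mmp19 and from -1.06 to -0.65 for Mmp11. For both genes the arms did not overlap, which held for 43.7% of genes with a mean of at least 10 CPM. Timp2 had 2475 and 2459 CPM under placebo and 1920 and 1930 CPM under MPA+E (log2 fold change -0.35 ± 0.13, edgeR adjusted p = 0.258). The arms did not overlap, and Timp2 did not pass in any of 14 alternatives. Mmp2 (-0.23), Mmp14 (-0.18), Timp3 (-0.11), Mmp3 (-0.07) and Mmp23 (-0.07) had smaller log2 fold changes, none past the threshold by edgeR.

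Other listed matrix proteases and regulators were called in both directions under MPA+E, where 4.33% of all genes were called, though most of those listed were not. Of 9 other Mmp, Timp and Reck genes tested, Mmp15, a membrane-bound MMP, rose (log2 fold change 1.90 ± 0.16, edgeR adjusted p = 0.00963), from 1.44 and 1.47 CPM to 5.32 and 5.47 CPM, and the other 8 did not pass. Of 26 ADAM and ADAMTS genes, Adamts19 (1.52) and Adamts15 (0.95) rose and Adam33 (-1.10) fell. Of 8 genes of the plasminogen system, Serpine2, the inhibitor protease nexin-1, rose (1.42 ± 0.13, edgeR adjusted p = 0.0101), and of 17 other matrix proteases and regulators Ctsh (cathepsin H) rose (0.93) and the proprotein convertase Pcsk6 fell (-1.34). The median log2 fold change was -0.11 over the 9 members tested and 0.01 over all genes.

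**Figure D5:**
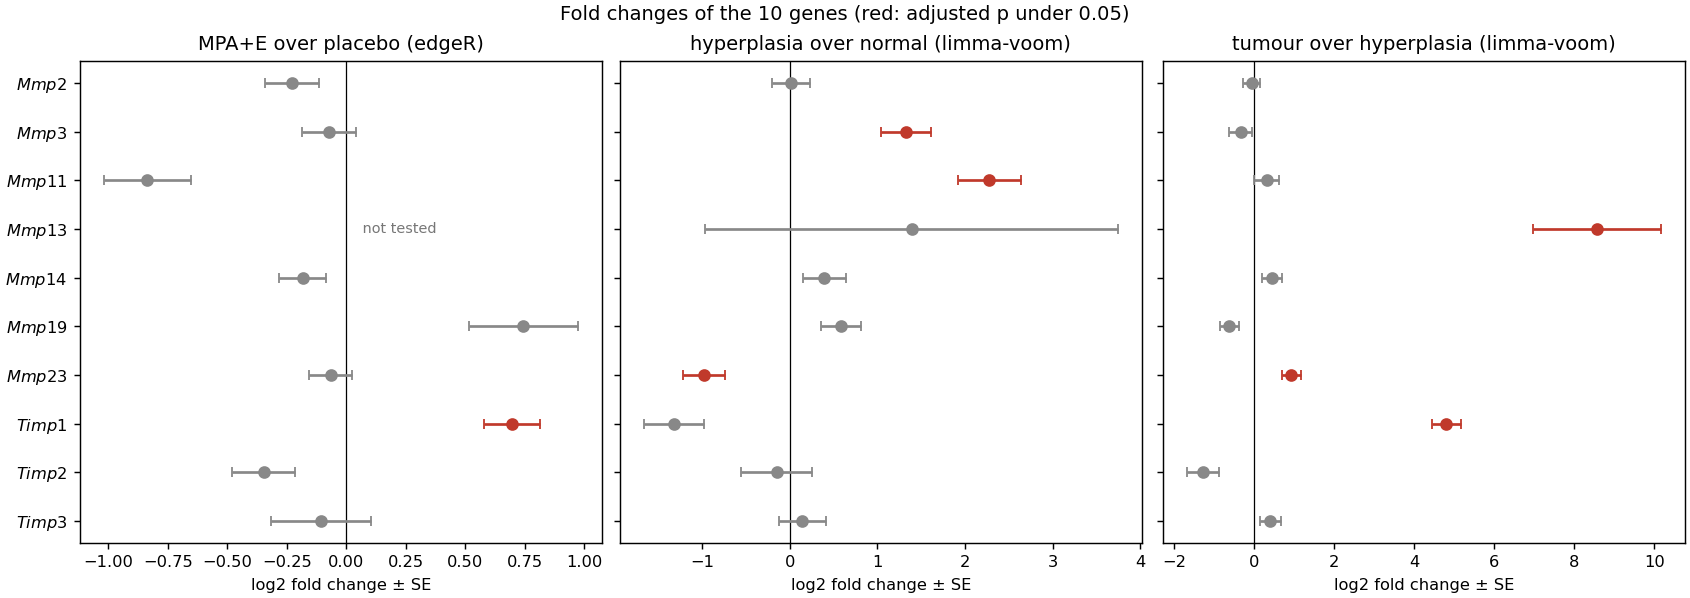
Log2 fold change with its standard error (horizontal axis) of each gene in the 3 comparisons tested. Red points have an adjusted p under 0.05. Timp1 is red under MPA+E (0.70), Mmp3, Mmp11 and Mmp23 in hyperplasia against normal glands, and Timp1, Mmp13 and Mmp23 in tumour against hyperplasia; the 3 horizontal axes differ in range.

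Within classes the hormone comparison was repeated for the 5 classes with at least 50 cells in all 4 libraries. Mmp19 rose in the progenitor class, from 49.2 and 50.2 CPM under placebo to 103 and 134 CPM under MPA+E (log2 fold change 1.28 ± 0.17, edgeR adjusted p = 0.0154). This was the only member called there, and 7.87% of 13108 genes were. The call was lost without placebo 1 (adjusted p = 0.100) or placebo 2 (0.0963). Mmp19 values in the other classes were 1.12 ± 0.24 in the preadipocyte class (edgeR adjusted p = 0.146), 0.89 ± 0.20 in the lobular class (0.0832), -0.02 ± 0.29 in the ECM remodelling class (0.984) and 0.48 ± 0.22 in the adipogenesis-regulatory class (0.354). Mmp19 passed in 4 of 7 alternatives in the lobular class, in 2 of 7 in each of the preadipocyte and adipogenesis-regulatory classes and in 0 of 7 in the ECM remodelling class. On leaving out 1 library the adipogenesis-regulatory value ran from 0.11 to 0.76. The ECM remodelling class had 350 and 373 CPM of Mmp19 under placebo and 280 and 454 CPM under MPA+E, so its arms overlapped. The test of the difference, progenitor class against the mean of the other classes, gave 0.67 ± 0.14 for Mmp19 (edgeR adjusted p = 0.0122), where 6.05% of 13760 genes were called. Without placebo 1, placebo 2 or MPA+E 1 that count of genes fell from 832 to 103, 216 or 483. The Mmp19 call was lost without placebo 1 (0.73, adjusted p = 0.122), without placebo 2 (0.59, adjusted p = 0.205) and at the finer clustering (0.37, adjusted p = 0.340).

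No member was called in the other 4 classes by edgeR, where 0.345% (preadipocyte), 0.505% (ECM remodelling), 2.08% (lobular) and 3.06% (adipogenesis-regulatory) of genes were called and 1410 to 1828 genes had an unadjusted p under 0.05. Over all 5 classes 7 calls of members were made without MPA+E 1, 3 without MPA+E 2 and 2 without placebo 2, against 1 with all libraries. Of all genes, 0.633% to 8.29% were called without MPA+E 1, 1.61% to 14.5% without MPA+E 2 and 0.00% to 2.38% without placebo 2. Timp1 was 0.06 ± 0.21 in the ECM remodelling class, which had 114 and 151 CPM under placebo and 141 and 149 CPM under MPA+E. In the lobular class Timp1 had 24.6 and 54.1 CPM under placebo and 88.1 and 95.7 CPM under MPA+E (1.2 ± 0.34, edgeR adjusted p = 0.163), and passed in 4 of 7 alternatives, with 0.76 to 1.99 over the libraries left out. In the preadipocyte class it had 95.7 and 102 CPM under placebo and 136 and 278 CPM under MPA+E (1.06 ± 0.39, edgeR adjusted p = 0.322), with 0.36 to 1.53 over the libraries left out. In the progenitor class Timp1 went from 37.0 and 23.3 CPM to 63.6 and 43.4 CPM (0.86 ± 0.25, edgeR adjusted p = 0.105), and in the adipogenesis-regulatory class from 96.8 and 116 CPM to 179 and 186 CPM (0.84 ± 0.17, edgeR adjusted p = 0.0552).

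The comparison of tumour with hyperplasia addressed how fibroblasts of the same raGFP-Wnt1 mice differ between the hyperplastic gland and the tumour. Timp1, Mmp13 and Mmp23 rose, and none of the 10 genes fell past the threshold of the limma-voom fit. In this fit 4777 of 16302 genes (29.3%) were called, and 3 of the 10 members were, all 3 among the 15.4% of genes that rose and none among the 13.9% that fell. The count of genes was 242 without hyperplasia 1, 314 without hyperplasia 2, 2975 without puberty and 2946 without the adult. Markers of myofibroblasts summed to 1831 and 3414 CPM in the tumours and to 69.2 and 49.0 CPM in hyperplasia, so the make-up of the fibroblasts differed as well.

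Timp1 had 38.1 and 44.7 CPM in the hyperplasia libraries and 733 and 1806 CPM in the tumours. Its log2 fold change was 4.80 ± 0.37 (n = 2 against 2 libraries, limma adjusted p = 0.00227), with ratios of 19.2 in mouse 1 and 40.4 in mouse 2, and it was called in all 17 alternatives (adjusted p 4.49e-32 to 0.0355). The wild-type libraries had 41.8 to 131 CPM, so both tumours lay above all other libraries. Within tumour 2 the level of Timp1 was 3326 CPM in an unnamed cluster led by Slpi and Bdnf and 847 CPM in the lobular class, so every class and every cluster of at least 50 cells of that tumour lay above the highest whole-library level outside the tumours. In tumour 1 the range was 212 CPM in the ECM remodelling class to 1512 CPM in a cluster led by Cxcl5 and Reg1.

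Mmp13 had 2 UMIs in each hyperplasia library and 868 and 2236 UMIs in the tumours, which is 8.47 CPM in tumour 1 and 25.5 CPM in tumour 2. The ratio was 239 (66.0 to 1978) in mouse 1 and 922 (255 to 7622) in mouse 2. The fitted log2 change of 8.56 ± 1.60 (limma adjusted p = 0.0161) depends on the prior count, given 2 UMIs. It lost its call without hyperplasia 1 (adjusted p = 0.127) or hyperplasia 2 (0.103) and passed in 15 of 17 alternatives. The cells with Mmp13 differed between the tumours. In tumour 1, 42.5% of its UMIs were in the cluster led by Cxcl5 and Reg1, in which haemoglobin genes were also among the leading genes, 36.5% in the myofibroblastic class (16.3 CPM), and the ECM remodelling class had 3 UMIs. In tumour 2 the highest level was 65.9 CPM in a lobular-like cluster led by Aqp5 and C1qtnf3, the myofibroblastic class had 10.1 CPM, and 39.5% of the UMIs lay in an unnamed cluster whose leading genes were Mmp13 itself and Ddit4l. The lobular-like cluster of tumour 1 was led by Hmcn2 and Myoc and had 1 UMI.

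Mmp23 had 78.1 and 102 CPM in hyperplasia and 176 and 164 CPM in the tumours (log2 fold change 0.93 ± 0.24, limma adjusted p = 0.0332). It rose 2.25 times in mouse 1 and 1.61 times in mouse 2, and lost its call without hyperplasia 1 (adjusted p = 0.189) or hyperplasia 2 (0.0815). Timp2 had 1872 and 2283 CPM in hyperplasia and 1310 and 554 CPM in the tumours. The libraries did not overlap, as for 72.5% of genes with a mean of at least 10 CPM, the ratios were 0.70 in mouse 1 and 0.24 in mouse 2, and the log2 fold change of -1.28 ± 0.40 did not pass (limma adjusted p = 0.0542). The log2 fold change was -1.92 without tumour 1 (limma adjusted p = 0.00055) and -0.62 without tumour 2 (0.0611), and Timp2 also passed by DESeq2 (-1.14, adjusted p = 0.0138). Mmp19 had 209 and 175 CPM in hyperplasia and 115 and 136 CPM in the tumours (-0.61 ± 0.23, limma adjusted p = 0.0878).

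The mice differed in direction for Timp3, Mmp11 and Mmp2. Timp3 had 693 CPM in hyperplasia and 1326 CPM in the tumour of mouse 1, and 1141 and 1044 CPM in mouse 2, a fitted change of 0.41 ± 0.27 (limma adjusted p = 0.274). Mmp11 had 27.5 and 51.4 CPM in mouse 1 and 32.5 and 27.0 CPM in mouse 2 (0.32 ± 0.31, adjusted p = 0.450), and without tumour 2 it passed (0.82, limma adjusted p = 0.0201). Mmp14 had 303 and 320 CPM in mouse 1 and 266 and 466 CPM in mouse 2 (0.45 ± 0.25, limma adjusted p = 0.210). Mmp3 had 1156 and 922 CPM in mouse 1 and 937 and 747 CPM in mouse 2 (-0.33 ± 0.29, limma adjusted p = 0.411), a ratio of 0.80 in both mice. Mmp2 showed a log2 fold change of -0.06 ± 0.22 (limma adjusted p = 0.860).

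Within the tumours Timp3 was highest, among the named classes, in the myofibroblastic class. That class had 3470 CPM of Timp3 in tumour 1 and 3128 CPM in tumour 2. It held 49.8% and 42.9% of the UMIs, from 18.4% and 17.8% of the fibroblasts. Pericyte markers were also higher in the tumours than elsewhere, and the part of pericyte RNA in these levels was not tested. The progenitor class had 692 CPM of Timp3 in tumour 1 and 286 CPM in tumour 2, against 1281 and 1447 CPM in hyperplasia. The progenitor-like cluster of tumour 2 was led by Rnd1, Adm and Hp and that of tumour 1 by Aldh1a3 and Igfbp5. Mmp11 was also highest in the myofibroblastic class, at 134 CPM in tumour 1 and 61.0 CPM in tumour 2. The myofibroblastic class had 443 and 314 CPM of Mmp3, against 3821 and 3461 CPM in the ECM remodelling class of the same tumours. Outside the tumours only lactation had cells of this name, 62 in the main and 92 in the finer clustering. Timp3 lay below the other named cells there (log2 ratio -1.23). At the finer clustering the medians over these 3 libraries, lactation among them, were 31.9 CPM for Mmp11 (10.4 to 102) and 158 CPM for Mmp3 (71.0 to 473).

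Tumour and hyperplasia were also compared within the 3 classes with at least 50 cells in all 4 libraries. The lobular clusters of tumour 1 and tumour 2 were led by different genes, and so were their progenitor-like clusters. These classes may thus not hold the same cells in each library. No member was called in the ECM remodelling, lobular or progenitor class by limma-voom, where 7, 0 and 0 genes were called in all (0.0576%, 0.00% and 0.00%) and 2998, 1612 and 1913 had an unadjusted p under 0.05. Timp1 had log2 fold changes of 3.03 ± 0.82 in the ECM remodelling class (limma adjusted p = 0.130), 3.46 ± 0.74 in the lobular class (0.225) and 5.53 ± 0.69 in the progenitor class (0.138). Leaving out tumour 1 gave 23 calls of members over the 3 classes and leaving out tumour 2 gave 8, where 18.2% to 45.4% and 2.93% to 19.3% of all genes were called, and in both cases Timp1 passed in all 3 classes. In the ECM remodelling class Timp1 was then 4.37 without tumour 1 (limma adjusted p = 0.000256) and 1.68 without tumour 2 (0.00907). With the mouse as a block 1762 of 12161 genes (14.5%) were called in the ECM remodelling class, against 0.0576% without it. Of the 9 members tested there 5 were called by limma: Timp1 (2.99, adjusted p = 0.0040), Mmp23 (0.81, 0.0269) and Mmp3 (0.70, 0.0461) rose, and Timp3 (-1.23, 0.0064) and Mmp19 (-0.71, 0.0385) fell. The block brought no member past the threshold in the other 2 classes.

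Other listed matrix proteases were called in both directions in the tumours, where 15.4% of all genes rose and 13.9% fell. Of 11 other Mmp, Timp and Reck genes tested, 4 rose and 1 fell: the gelatinase Mmp9 (log2 fold change 4.98, limma adjusted p = 0.00885) from 0.23 and 0.22 CPM to 5.05 and 10.8 CPM, Mmp8 (1.80), Mmp15 (2.19) and Mmp10, with 1 and 0 UMIs in hyperplasia and 56 and 164 in the tumours, rose, and Reck, a membrane-anchored inhibitor of MMPs, fell (-1.77, limma adjusted p = 0.0213) from 127 and 119 CPM to 53.7 and 24.2 CPM. Of 26 ADAM and ADAMTS genes 8 rose, led by Adamts6 (3.34), Adam12 (3.19) and Adamts20 (3.49), and 6 fell, among them Adamts1 (-1.30), Adam33 (-1.01) and Adamts16 (-1.33). Of 8 genes of the plasminogen system 4 rose and 2 fell. Among those that rose were Serpine2 (3.48 on the log2 scale), Serpinb2 (4.65) and the urokinase receptor Plaur (2.02), while Plau, which encodes urokinase, fell (-1.54), and Serpinf2 fell from 19 and 21 UMIs to 1 and 5 UMIs. Of 17 other proteases and regulators 4 rose, among them Pcsk5 (1.22), Ctsd (0.73) and Ctss, with 1 and 3 UMIs in hyperplasia and 23 and 24 in the tumours, and 4 fell, among them Htra1 (-1.59), Mme (-2.70) and Dpp7 (-0.88). The median log2 fold change was 0.36 over the 10 members and -0.01 over all genes.

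Hyperplasia was compared with normal glands, the puberty and adult libraries joined, in the same fit. The normal arm thus held 1 library of each stage and no replicate of either. The difference between these stages enters the spread that this fit measures. Mmp11 and Mmp3 rose and Mmp23 fell. The ECM remodelling class held 27.4% and 27.7% of fibroblasts in hyperplasia and 15% in the adult, and no cluster of puberty took this name. In the placebo libraries it held 24.3% and 17.7%. The part of this class in the calls was not tested. In this contrast 2280 of 16302 genes (14.0%) were called and 3 of 10 members were, 2 that rose (7.70% of genes) and 1 that fell (6.29%). Without puberty, the adult, hyperplasia 1 or hyperplasia 2 the count of genes was 8, 183, 2 or 1, and without tumour 1 or 2 it was 4810 or 4799. Mmp11 had 5.48 and 6.50 CPM in normal glands and 27.5 and 32.5 CPM in hyperplasia (log2 fold change 2.28 ± 0.36, limma adjusted p = 0.0202), and the placebo libraries had 10.1 and 11.2 CPM. Mmp3 had 308 and 537 CPM in normal glands and 1156 and 937 CPM in hyperplasia (1.33 ± 0.28, limma adjusted p = 0.0356), with 752 and 628 CPM under placebo. Mmp23 had 205 and 141 CPM in normal glands and 78.1 and 102 CPM in hyperplasia (-0.98 ± 0.24, limma adjusted p = 0.0447), with 112 and 107 CPM under placebo. The placebo libraries, from 9-week virgin glands that were not part of this fit, lay between the normal and hyperplasia values for all 3 genes. Normal and hyperplasia libraries did not overlap for any of the 3, nor for 73.3% of genes with a mean of at least 10 CPM.

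All 3 calls were lost on leaving out the puberty, the adult or either hyperplasia library. The adjusted p then ranged from 0.0902 to 0.130 for Mmp11, from 0.0629 to 0.219 for Mmp3 and from 0.0831 to 0.257 for Mmp23. Timp1 had 110 and 91.4 CPM in normal glands and 38.1 and 44.7 CPM in hyperplasia (-1.32 ± 0.34, limma adjusted p = 0.0511), and passed in 4 of 16 alternatives: without tumour 1 (limma adjusted p = 0.00281), without tumour 2 (0.00286), with only the 4 libraries compared (0.00363) and by DESeq2 (0.00800). Mmp19 (0.58), Mmp14 (0.39), Timp3 (0.15), Timp2 (-0.15) and Mmp2 (0.01) did not pass by limma, and neither did Mmp13 (1.39 ± 2.36), with 0 and 1 UMIs in normal glands and 2 and 2 in hyperplasia. This contrast and that of tumour with hyperplasia share the hyperplasia libraries.

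Among the listed genes Reck (2.01 ± 0.38, limma adjusted p = 0.0285) and Mmp8 rose in hyperplasia, of 11 other Mmp, Timp and Reck genes tested. Reck had 32.7 and 27.2 CPM in normal glands, 127 and 119 CPM in hyperplasia, and 97.5 and 72.5 CPM under placebo. Mmp8 had 2 UMIs in each normal library and 11 and 19 in hyperplasia. Of 8 genes of the plasminogen system 3 rose, among them Plau (1.96, limma adjusted p = 0.00592) and Plat (0.81). Of 26 ADAM and ADAMTS genes Adamts7 (1.18) rose and 4 fell, among them Adamts2 (-1.30), Adam12 (-1.83) and Adamts19 (-1.41). Of 17 other proteases and regulators Mme (2.29), Cst3 (0.89) and Ctsk (1.18) rose and Ctsh (-1.34) fell. The median log2 fold change was 0.27 over the 10 members and -0.01 over all genes.

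Genes with the pattern most like that of each member were found by Pearson's r of log2(CPM + 1) over the 13 libraries, among 7866 genes with a mean of at least 10 CPM. The libraries share their sort, strain and run in part, so r is a description. Mmp11 was most like Chchd10 (r = 0.97, and 0.97 without the tumours), its neighbour on the opposite strand, and Aebp1 (0.93). Mmp3 was most like Lrig3 (0.94), Synj2 (0.89) and Fbln7 (0.89), Mmp14 like Ctsk (0.89), Itgbl1 (0.87) and Mgp (0.86), and Mmp2 like Naglu (0.87), Tanc2 (0.83) and Lum (0.83). Mmp19 was most like Tent4a (0.89, and 0.91 without the tumours), Mmp23 like Smim20 (0.98 and 0.97) and Timp1 like Gpc1 (0.98 and 0.93). Timp2 was most like Ebf2 (0.98, and 0.80 without the tumours) and Timp3 like Atg10 (0.88 and 0.80). For Mmp13 the most similar gene was Tgfb3 (0.99), and this rested on the tumours, since r was 0.60 over the other 11 libraries.

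Mmp11, Mmp19, Timp1 and Timp3 overlap other genes on the opposite strand in GENCODE M21 on GRCm38, and Timp2 overlaps Cep295nl on the same strand. Timp1 (ENSMUSG00000001131, chromosome X, 20870166 to 20874735, plus strand) lies inside Syn1, and Timp3 (ENSMUSG00000020044, chromosome 10, 86300372 to 86349506, plus strand) inside Syn3. Mmp13 (ENSMUSG00000050578) spans 7272514 to 7283331 and Mmp3 (ENSMUSG00000043613) 7445822 to 7455975 on chromosome 9. Mmp11 (ENSMUSG00000000901) spans 75923222 to 75936496 on chromosome 10, minus strand, so the RefSeq start shown above lies inside the GENCODE gene. The other genes lie on chromosome 8 (Mmp2), 14 (Mmp14), 10 (Mmp19), 4 (Mmp23) and 11 (Timp2).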

How the data were processed

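The authors deposited 1 filtered matrix per library of raw UMI counts per gene and barcode, with no normalization. The submitters' processing notes name Cell Ranger 6.1.2 and mm10. The annotation release is not given in the sources used here. Of 32285 identifiers, 99.8% were found in GENCODE M21, used for positions only. The members and gene lists were chosen with earlier results of these data known.

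Barcodes with the highest Scrublet scores (0.8% per 1000 barcodes) stayed in the main values and were removed in an alternative, but a cluster of which over 50% was so called stayed unnamed. Each library was clustered alone with scanpy 1.11.5 (30 principal components of 1000 genes, 20 neighbours, Leiden resolution 0.8). Clusters were named from the marker lists when at least 3 markers (4 where none was among the 10 leading genes) were raised by a log2 fold of 1 or more and the mean log2 fold of the list was at least 0.9 and well above that of the next list; those led by markers of other cell types or haemoglobin genes, or of low depth, stayed unnamed. The limits were chosen with the cluster tables in view, so a difference from the study's own states may come from the rebuilt names. Libraries shared few cell barcodes, and an alternative left those out.

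UMIs were added up within a library, or within each class of it, and tested across libraries with edgeR 4.0.16 (quasi-likelihood, TMM, filterByExpr) for the hormone arms and with limma-voom (limma 3.58.1) for puberty and adult joined as normal, hyperplasia and tumour. The study's methods give limma-voom for the latter groups and edgeR for clusters of normal fibroblasts; edgeR for the hormone arms, TMM and filterByExpr were chosen here. p-values were adjusted over all genes (Benjamini-Hochberg) and the threshold was 0.05. Models were tested on simulated data with 200 changed genes. The labels do not say that the hormone replicates were separate experiments, so p-values measure the spread between these libraries. The labels tie each hyperplasia library to the tumour library of 1 mouse; deviations from the group means of libraries of the same mouse correlated at 0.095 over 16001 genes. CPM and ratios of 1 library to another were computed from the counts with exact Poisson and binomial 95% intervals, which cover counting error only. Stage ratios were read at 1.5 times. Named genes were all 10 members, of each list up to 3 with the smallest adjusted p in each direction, and for each member up to 3 genes of the highest r. In the tumours all 4 of the other Mmp, Timp and Reck genes that rose were named. DESeq2 1.42.0 was an alternative. The values of 1 listed gene are not reported here.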

Additional observations from a re-analysis of the deposited data

Results flagged for a closer look

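Both MPA+E libraries lay above both placebo libraries for Mmp19 in the progenitor class, with 2 libraries an arm. Over all fibroblasts, 43.7% of genes with a mean of at least 10 CPM were separated in this way, in either direction. On leaving out 1 library the log2 fold change ran from 1.06 to 1.49 in the progenitor class. The ranges of the preadipocyte (0.78 to 1.39) and lobular (0.68 to 1.18) classes overlapped it. Those of the adipogenesis-regulatory (0.11 to 0.76) and ECM remodelling (-0.50 to 0.35) classes lay below it. The test of the progenitor class against the mean of these other 4 called 6.05% of genes. In it the Mmp19 change was higher in the progenitor class by 0.67 ± 0.14 (edgeR, adjusted p = 0.0122). Over 6 alternatives the adjusted p ranged from 0.00011 to 0.340 and passed in 3.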

How the results depend on the processing

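Of 846 alternative values for 89 results, 680 kept their direction and their side of the threshold. Over all fibroblasts under MPA+E, edgeR called 678 genes (4.33%) and 1 member, and DESeq2 called 1358 genes (8.68%) and 3 members. With at least 100 fibroblast UMIs per 10000 edgeR called 747 genes (4.81%) and 0 members. With no filter on low counts it called 582 genes (2.54%) and 0 members. The replicate block on the hormone libraries called 2451 genes and 3 members (Timp1, Mmp11 and Mmp19), and 16 members over the 5 classes against 1 without it, where the share of all genes called was 3.63% to 16.9% against 0.345% to 7.87%; the labels give these libraries only a shared number, deviations of same-numbered libraries correlated at 0.40 with 2 pairs, and the cause was not tested. The mouse block on tumour and hyperplasia called 5 members over the classes, all in the ECM remodelling class, where 14.5% of genes were called against 0.0576% without it. It changed no call of a member over all fibroblasts. Within classes, no filter gave 9 hormone members (1.18% to 8.26% of all genes) and 1 tumour member (up to 1.5%), and the finer clustering gave 3 hormone members (0.00% to 3.82%). The class difference was called for 832 genes, 1267 without a filter and 463 at the finer clustering. Hyperplasia against normal gave 2280 genes, 4017 by DESeq2 and 4810 with only the 4 libraries compared. Against the adult, 1 member was past 1.5 times at puberty and 0 in pregnancy within the progenitor class, and 1 in pregnancy with Scrublet calls removed. The share of all genes past this limit was computed in the main setting only (5.01% at puberty and 3.38% in pregnancy).

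Leaving out 1 library gave 22 to 900 genes and 0 to 3 members for the hormone, 242 to 7120 genes and 1 to 4 members for tumour against hyperplasia, and 1 to 4810 genes and 0 to 4 members for hyperplasia against normal; it gave 1 to 7 hormone members (0.00% to 14.5% of all genes in a class) and 0 to 23 tumour members (up to 45.4%) within classes, and 103 to 943 genes for the class difference. An arm left with 1 library was assumed to vary like the others. Signs turned for Timp3 under the hormone without MPA+E 1 (-0.41 to 0.14 over the libraries left out), for Mmp2 in tumours without hyperplasia 1 (0.01) or tumour 2 (-0.29 to 0.19), for Mmp11 in tumours without tumour 1 (-0.17 to 0.82), for Mmp2 in hyperplasia without the adult (-0.11 to 0.16) or hyperplasia 1 (-0.06), for Timp3 in hyperplasia without hyperplasia 2 (-0.20 to 0.50), and in the ECM remodelling class under the hormone for Timp1 without placebo 1 (-0.18 to 0.36) or MPA+E 2 (-0.05) and Mmp19 without placebo 2 (0.10) or MPA+E 1 (-0.50 to 0.35). Depth limits Mmp13 outside the tumours, at 41 UMIs or fewer per library.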
